A study of Homo sapiens with 183 samples.

Results

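The 38 genes described here belong to homologous recombination, the Fanconi anemia pathway and the checkpoint that watches over replication forks, and were taken as a fixed list of symbols out of the 19875 gene names in the deposited tables. The rule that lists these genes uses no measured value. All 38 were present in each of the 8 tables and passed the filter on low values in every fit. They were followed through 183 RNA-seq libraries of human cancer cell lines. Fold changes below are differences on the scale of log2(TPM + 1), where TPM is a transcript abundance corrected for length that sums to 1e+06 in each library, and a gene is said to have risen or fallen when its adjusted p from limma, corrected over all genes tested, was under 0.05.

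The study asked which genes depend on the transcription factor KLF5 and on RUVBL1 and RUVBL2, a pair of AAA+ ATPases, in pancreatic ductal adenocarcinoma cells. In the knockout experiments, Cas9-expressing AsPC-1, T3M-4, BxPC-3, CFPAC-1 and SUIT-2 cells were infected with guides and harvested on day 5. Every knockout was compared with sgRosa, a guide to a safe locus, in the same line and experiment. Experiment numbers here are the digit before the point in the replicate part of the sample titles. The titles do not say what that digit marks, so its reading as an experiment is an inference. AsPC-1 was assayed in experiment 1 (6 sgKLF5 and 2 sgRosa libraries), experiment 2 (4 each of sgRUVBL1, sgSERPINB5 and sgRosa), experiment 3 (4 each of sgKLF5, sgRUVBL1, sgRUVBL2 and sgRosa, 2 each of sgCDK1 and sgRpa3) and a CHD4 experiment (4 sgCHD4 and 4 sgRosa). T3M-4 was assayed in experiment 1 (4 sgKLF5, 2 sgRpa3, 2 sgRosa) and experiment 2 (4 sgKLF5, 3 sgRUVBL1, 4 sgRUVBL2, 2 sgCDK1, 2 sgRpa3, 4 sgRosa). BxPC-3 was assayed in experiment 1 (4 sgKLF5, 2 sgRpa3, 2 sgRosa) and experiment 2 (4 sgKLF5, 4 sgRUVBL1, 3 sgRUVBL2, 2 sgCDK1, 2 sgRpa3, 4 sgRosa). CFPAC-1 contributed 3 sgKLF5, 4 sgRUVBL1, 2 sgRUVBL2, 2 sgCDK1, 2 sgRpa3 and 4 sgRosa libraries. SUIT-2 contributed 4 sgKLF5 and 4 sgRosa libraries. In the inhibitor experiments, cells received CB-6644, an allosteric inhibitor of the RUVBL1/2 ATPase activity, or DMSO for 24 h. Parental T84 (colorectal), A375 (melanoma), H1048 (small cell lung) and RH30 (alveolar rhabdomyosarcoma) cells had 4 libraries per arm. AsPC-1 and T3M-4 cells carried an empty lentiviral vector (Lv-Empty) or stably expressed the resistance variants RUVBL1_A62T or RUVBL2_dF109, with 3 CB-6644 libraries and 1 DMSO library per vector. The 3 DMSO libraries of a line were therefore pooled as its control. Each line is a single established culture, and the infected cells are pools rather than clones. A pair of guides was used for most targets per the study's methods, but the labels do not tell them apart. The labels also do not say that replicates are separate cultures, so p-values measure the spread between these libraries.

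Homologous recombination repairs broken or collapsed forks by copying the sister chromatid: ends are resected to single-stranded DNA, BRCA2 and its partners prepare that strand, and it invades the intact template. The Fanconi pathway handles DNA crosslinks through a core complex that ubiquitinates FANCD2 and FANCI, after which nucleases unhook the lesion and recombination completes the repair. Most of these genes are transcribed mainly in late G1 and S phase, and proliferating cancer cells express them at readily measured levels.

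The targeted genes served as a check of the labels where mRNA could show it. RUVBL1 was at 27.4 to 53.7 TPM in the sgRUVBL1 libraries of every experiment against 79.5 to 175 TPM in the matched sgRosa libraries, and RUVBL2 was at 31.5 to 128 TPM in the sgRUVBL2 libraries against 92.0 to 256 TPM in theirs. In each of these experiments every knockout library lay below every sgRosa library. The CFPAC-1 libraries labelled sgRpa3 had low CDK1 (81.0 and 91.9 TPM, against 206 to 236 TPM in sgRosa) while those labelled sgCDK1 had not (194 and 207 TPM), so these 4 libraries went against their labels and are named only as labelled. KLF5 mRNA in sgKLF5 libraries and CHD4 mRNA in sgCHD4 libraries were not below sgRosa throughout, so transcript level does not check those labels. Replicate 2 of sgKLF5 in T3M-4 experiment 1 and replicate 1 of sgRosa in SUIT-2 stood apart from their groups, with a median absolute distance over genes of 0.757 and 0.603 on the log2 scale. EPCAM was at 70.1 TPM or more in every pancreatic control library and MYOD1 at 684 to 770 TPM in RH30. H1048 had POU2F3 at 452 to 501 TPM and ASCL2 at 6.71 to 9.29 TPM. It had nearly no TRPM5 (0 to 0.18 TPM) or CHAT (0.15 to 0.34 TPM). A375 had SOX10 (231 to 238 TPM) and MITF (16.4 to 18.5 TPM). It had nearly no PMEL (0.59 to 1.29 TPM) or MLANA (1.06 to 1.41 TPM). ASCL2 was higher in T84 (33.2 to 39.2 TPM) and MITF in CFPAC-1 (22.5 to 28.7 TPM). T84 had CDX1 at 134 to 139 TPM and CDX2 at 84.8 to 97.8 TPM, while CDH17 was higher in AsPC-1 than in T84. TPM values sum to the same total in each library and carry no read depth.

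Among the 34 genes with a promoter in the RefSeq table (GRCh38.p14, 250 bases before to 50 after the start site; FANCI, NBN, RAD54B and RMI2 are not in it), 9 held an E2F-type word (TTTCCCGC, TTTGGCGC, TTTCGCGC or TTTGCCGC on either strand), which is 26.5%, against 3.99% of all 27305 gene symbols in that table, where a gene counts if any of its listed start sites holds the word. Of the 35116 single promoters, 3.31% held it. A CCAAT word was in 18 of the 34 (52.9%, against 39.7% of symbols), and the CHR word TTTGAA of G2/M genes was in 4 (11.8%, against 18.2%). The words differ from each other and a match is a description of letters only. The following stretches are shown because these genes carry the results below, with the E2F word in capitals on the gene's strand. For TIPIN the word and its reverse complement overlap. The words of TIPIN, RMI1 and EXO1 belong to a listed start site inside the gene and not to its outermost one. That of TIPIN is far inside, since the gene starts at 66386717 on the minus strand of chromosome 15.
XRCC2, chr7:152676104-152676129: gcgttggtgGCGGGAAAgttgagtct
FANCA, chr16:89816803-89816828: tacaccgcgGCGGCAAAgccaaacgc
FANCD2, chr3:10026426-10026451: tcgggcctgGCGGGAAAgtcgaaaac
RMI1, chr9:83980764-83980789: cgcgagcgcGCGGCAAAtcgggcggg
EXO1, chr1:241848199-241848224: aggtcagccTTTCGCGCgctgtgtag
CLSPN, chr1:35769967-35769992: tctggctggGCGGGAAAgcaagaaca
TIPIN, chr15:66356735-66356760: ccgcacggaTTTGGCGCcaaacgctg
The promoter of TIMELESS held none of the E2F words and held a CCAAT word (in capitals).
TIMELESS, chr12:56449466-56449488: ccttcttcaCCAATctccgcccc

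In control libraries the 38 genes spanned a wide range of levels, compared here per transcript as TPM, which corrects for length. UBE2T, the ubiquitin-conjugating enzyme of the Fanconi core, had the highest mean among the genes named in this paragraph in all 9 lines, from 69.1 TPM in SUIT-2 to 354 TPM in H1048. FANCI ran from 38.5 TPM in SUIT-2 to 152 TPM in H1048, and USP1, which removes ubiquitin from FANCD2 and FANCI, from 37.2 TPM in SUIT-2 to 177 TPM in RH30. At the low end were BRCA2 (1.34 TPM in SUIT-2 to 17.5 TPM in RH30), the nuclease scaffold SLX4 (2.9 to 8.32 TPM) and FANCM, the DNA translocase that anchors the core complex (1.61 to 12.3 TPM). H1048 had the highest mean for UBE2T, FANCI, FANCM, FANCD2 (46.3 TPM), RAD51C (121 TPM), BARD1 (40.9 TPM), TIMELESS (96.4 TPM) and FANCL (88.7 TPM), and SUIT-2 the lowest for UBE2T, FANCI, BRCA2, FANCM, FANCD2 (7.47 TPM), RAD51C (19.0 TPM), BRCA1 (12.7 TPM) and TIMELESS (34.6 TPM). Without the SUIT-2 library that stood apart TIMELESS was at 40.7 TPM there, above AsPC-1 (36.3 TPM), and SUIT-2 was still lowest for the other 7. NBN was highest in A375 (77.3 TPM) and lowest in RH30 (24.0 TPM), and its MRN partner RAD50 was also lowest in RH30 (12.2 TPM), with 40.2 TPM in AsPC-1. These tables were made from separate experiments, so levels are set side by side across lines and not tested.

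Inhibition of the RUVBL1/2 ATPase with CB-6644 for 24 h split the 38 genes. In A375, 24 rose and 8 fell (81.1% of all genes tested were called in that comparison). In T84, 19 rose and 9 fell (71.4% of all genes), in H1048, 22 rose and 8 fell (77.9%), and in RH30, 24 rose and 8 fell (77.7%). In empty-vector AsPC-1, 24 rose and 5 fell (64.4%), and in empty-vector T3M-4, 14 rose and 7 fell (34.3%). The median change over the 38 genes was 0.17 in T84, 0.28 in A375, 0.25 in H1048, 0.20 in RH30, 0.33 in AsPC-1 and 0.19 in T3M-4, beside a median over all genes of 0.13, 0.16, 0.18, 0.13, 0.19 and 0.04. After scaling by the median of ratios, which takes that shift out, the splits were 10 higher and 15 lower in T84, 19 and 15 in A375, 17 and 16 in H1048, 15 and 14 in RH30, 12 and 11 in AsPC-1, and 9 and 6 in T3M-4. In T84, A375, H1048 and RH30 the share of the 38 genes called was close to that of all genes, so the counts there are no result about these genes. In AsPC-1 and T3M-4 it was above that of all genes before scaling, and no test set the list against other genes. Here and below, the share of all genes called after scaling is not given, so scaled counts lack that background.

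**Figure D1:**
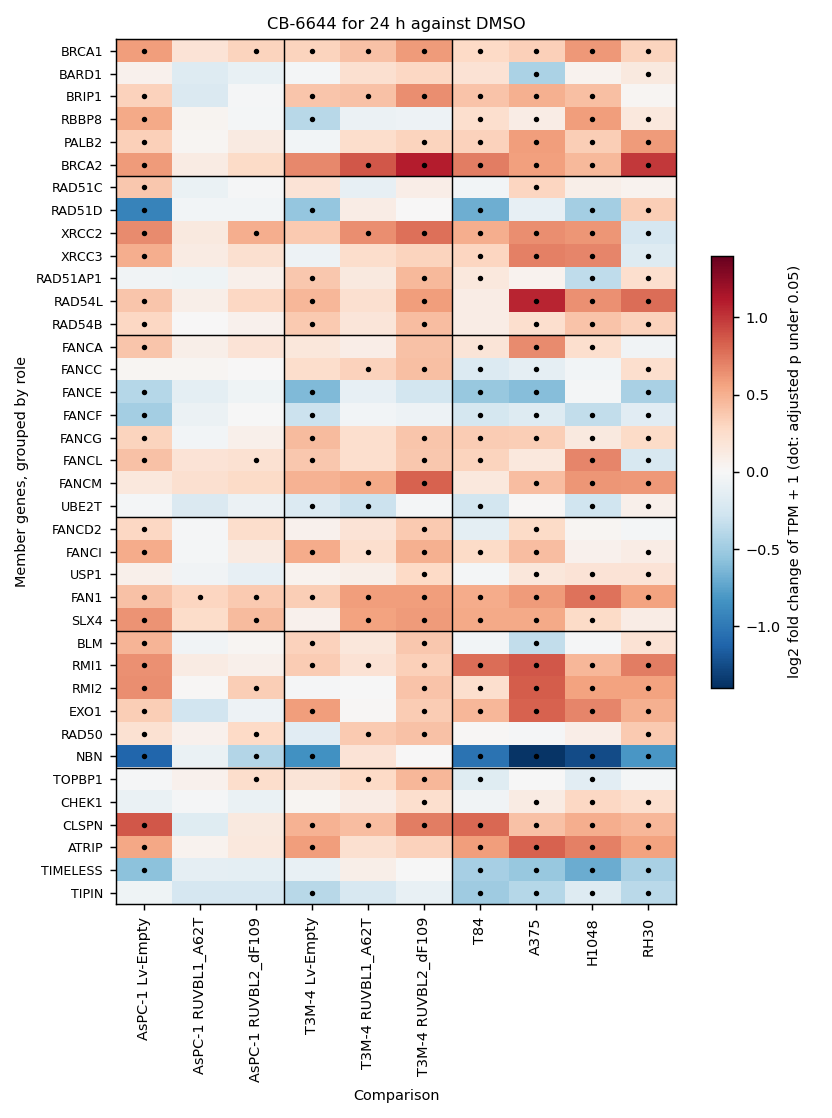
Heat map of the change with CB-6644 at 24 h against DMSO for the 38 genes (rows, grouped by role) in 10 comparisons (columns), as the difference of log2(TPM + 1). Red is higher and blue lower with CB-6644, and a dot marks an adjusted p under 0.05. NBN and FANCF are blue with a dot in all 6 lines without a variant, and in AsPC-1 the RUVBL1_A62T column holds 1 dot.

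By role, which is read here beside the large shares of all genes called above, of BRCA1, BARD1, BRIP1, RBBP8 (CtIP, which starts end resection), PALB2 and BRCA2, 5 rose and 0 fell in AsPC-1, T84, H1048 and RH30, 5 rose and 1 fell in A375, and 2 rose and 1 fell in T3M-4. Of FANCD2, FANCI, USP1 and the nuclease genes FAN1 and SLX4, 4 rose in AsPC-1, 2 in T3M-4, 3 in T84, 5 in A375, 3 in H1048 and 3 in RH30, and none fell before scaling. Summed over the 6 lines, the BRCA complexes gave 27 calls up and 2 down, and 17 and 5 after scaling. FANCD2, FANCI, USP1, FAN1 and SLX4 gave 20 and 0, and 12 and 5 after scaling, where FANCD2 was lower in 3 lines. The core complex and UBE2T (8 genes) went both ways, with 3 up and 2 down in AsPC-1, 2 and 3 in T3M-4, 3 and 4 in T84, 3 and 3 in A375, 4 and 2 in H1048 and 4 and 3 in RH30. The checkpoint and fork-protection genes also went both ways, with 2 or 3 of the 6 up and 1 to 3 down in each line.

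NBN, which encodes the subunit of the MRN complex that brings the ATM kinase to broken ends, fell in all 6 lines. In A375 the CB-6644 libraries were at 29.3, 30.8, 26.8 and 30.6 TPM and the DMSO libraries at 80.4, 76.6, 76.5 and 75.7 TPM, a change of -1.37 (SE 0.04, adjusted p = 2.87e-10, limma). In H1048 the values were 19.7, 20.8, 20.3 and 22.5 TPM against 47.7, 49.7, 52.2 and 54.9 TPM (-1.25, SE 0.05, adjusted p = 1.45e-09). In every line the treated libraries lay wholly below the DMSO libraries. T84 gave 19.1, 19.5, 22.6 and 17.6 TPM against 39.6, 46.9, 37.7 and 41.3 TPM (-1.03, SE 0.08, adjusted p = 1.18e-08). RH30 had 12.6, 11, 14.8 and 14.8 TPM with CB-6644 and 22.6, 23.0, 26.3 and 24.3 TPM with DMSO (-0.82, SE 0.08, adjusted p = 1.67e-06). Empty-vector AsPC-1 had 18.1, 16.9 and 16.4 TPM against 41.7, 39.4 and 34.0 TPM (-1.11, SE 0.07, adjusted p = 1.89e-07). The smallest separation was in empty-vector T3M-4, with 22.1, 24.7 and 25.9 TPM against 36.7, 56.7 and 41.6 TPM (-0.85, SE 0.14, adjusted p = 0.000866). RAD50, the other MRN gene among the 38, was called lower in none of the 6 lines, but in 3 of them after the scaling above. It rose in RH30, where the libraries had 16.6, 15.9, 15.6 and 15.7 TPM against 12.9, 10.9, 12.5 and 12.4 TPM (0.36, SE 0.05, adjusted p = 4.71e-05), and in AsPC-1 (0.21, which was -0.05 after scaling), and its change was 0.02 in T84, -0.01 in A375, 0.09 in H1048 and -0.16 in T3M-4. The libraries do not mark strand, and 827 of the 19417 exonic bases of NBN overlap OSGIN2 on the opposite strand, so reads from that stretch cannot be told apart.

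TIMELESS and TIPIN encode the pair that travels with the fork and holds it steady when synthesis stalls. TIPIN shares 579 of its 2739 exonic bases with the pseudogene RPL9P25 on the same strand. TIMELESS fell in 5 of the 6 lines. H1048 libraries had 59.6, 58.7, 58.4 and 59.2 TPM with CB-6644 and 95.8, 97, 95.8 and 96.9 TPM with DMSO (-0.70, SE 0.03, adjusted p = 7.84e-10). A375 had 35.2, 35.7, 33.2 and 33.3 TPM against 49.98, 49.4, 50.9 and 49.8 TPM (-0.53, SE 0.03, adjusted p = 5.27e-08), and the arms did not overlap in either line. T84 (32.5, 30.6, 30.9 and 31.8 against 40.7, 46.7, 44.3 and 43.4 TPM) changed by -0.46 (adjusted p = 1.36e-06) and RH30 (37.4, 36.2, 37.1 and 35.4 against 49.9, 48.8, 51.7 and 50.6 TPM) by -0.45 (adjusted p = 6.64e-08). In AsPC-1 the change was -0.57 (SE 0.10, adjusted p = 0.000416), with 16.6, 16.5 and 17.8 TPM against 31.7, 23.4 and 22.8 TPM, and it was -0.86 against the DMSO library of the same vector alone. In T3M-4, where libraries had 51.6, 48.6 and 43.0 TPM against 50.7, 53.3 and 49.6 TPM, the arms overlapped and the change of -0.10 did not pass (adjusted p = 0.329). TIPIN fell in T84 (-0.50), A375 (-0.40), RH30 (-0.38), T3M-4 (-0.39) and H1048 (-0.18), and changed by -0.06 in AsPC-1 (adjusted p = 0.57). The T3M-4 call for TIPIN was lost against the DMSO library of the same vector (-0.32, adjusted p = 0.0539).

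The core complex gene FANCF fell in all 6 lines, by less. AsPC-1 showed the largest difference, with 7.29, 7.55 and 7.69 TPM against 10.9, 10.1 and 11.6 TPM (-0.48, SE 0.08, adjusted p = 0.000199), followed by H1048 with 15.1, 15.5, 14.1 and 16.2 TPM against 18.9, 19.8, 20.5 and 19.4 TPM (-0.35, SE 0.05, adjusted p = 4.96e-05). T3M-4 changed by -0.30, T84 by -0.24, A375 by -0.18 and RH30 by -0.16, and in RH30 the arms overlapped (6.94, 7.75, 7.26 and 6.70 against 7.90, 8.50, 8.26 and 7.68 TPM). Leaving out any of 4 RH30 libraries ended that call, with adjusted p from 0.0673 to 0.0842, and leaving out any of 3 T3M-4 libraries ended the call there, with adjusted p from 0.0512 to 0.0722. FANCE, the core subunit that contacts FANCD2, fell in 5 lines (T3M-4 -0.61, A375 -0.59, T84 -0.53, RH30 -0.46, AsPC-1 -0.40). In A375 FANCE was at 8.14, 7.91, 8.22 and 6.70 TPM with CB-6644 and 12.5, 12.9, 11.9 and 11.3 TPM with DMSO, whereas in H1048 it was at 33.7, 33.5, 33.7 and 31.6 TPM against 33.9, 35.2, 33.1 and 32.6 TPM, overlapping, with a change of -0.03 (adjusted p = 0.574). FANCL, the ubiquitin ligase of the core, moved the other way in 4 lines: in H1048 it was at 145, 150, 127 and 150 TPM against 86.3, 86.7, 92.5 and 89.3 TPM (0.68, SE 0.05, adjusted p = 1.17e-07), and it also rose in AsPC-1 (0.41), T3M-4 (0.38) and T84 (0.31). After median-of-ratios scaling the FANCL values were 0.14, 0.28 and 0.13 in those 3 lines and none passed the test. FANCL fell in RH30, where the libraries overlapped (40.6, 46.5, 54.1 and 47.3 against 55.9, 54.3, 53.5 and 55.3 TPM, -0.22, adjusted p = 0.00787).

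RAD51D, a gene of strand exchange, moved in both directions across lines. It fell in AsPC-1 (4.23, 3.86 and 3.43 against 9.08, 8.16 and 7.55 TPM, -0.94, SE 0.09, adjusted p = 4.2e-06), in T84 (5.66, 7.05, 6.21 and 7.22 against 10.8, 11.8, 10.6 and 11 TPM, -0.68, SE 0.08, adjusted p = 1.94e-06), in T3M-4 (-0.54) and in H1048 (-0.47). In RH30 it rose, from 9.52, 11.3, 9.32 and 11.1 TPM to 13.4, 13.4, 13.7 and 12.9 TPM (0.34, SE 0.06, adjusted p = 0.000308), and the arms did not overlap. In A375 the arms overlapped and the change was -0.11 (adjusted p = 0.0568). RAD54L, a translocase that acts at strand exchange, rose by 1.06 in A375 (SE 0.04, adjusted p = 8.68e-10), where the libraries had 56.8, 57.9, 59.5 and 53.1 TPM against 27.7, 25.9, 26.1 and 26.9 TPM. It rose by 0.78 in RH30, with 66.5, 62.5, 57.5 and 57.8 TPM against 36.8, 36.8, 34.2 and 33.0 TPM, and its change in T84 was 0.10, with 32.1 to 37.6 TPM against 31.6 to 34.1 TPM. RAD54L shares 813 of its 4078 exonic bases with LRRC41 on the opposite strand. RAD51D shares 905 of 11282 with a protein-coding gene on the same strand. RAD51AP1, which also acts at strand exchange, rose in RH30 (0.23), T3M-4 (0.37) and T84 (0.15) and fell in H1048 (-0.36, adjusted p = 5.54e-05); after scaling the T84 value was -0.04 and the RH30 value 0.07, and neither passed.

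BRCA2 rose in 5 of the 6 lines. In RH30 it was at 37.9, 34.2, 35.3 and 35.4 TPM with CB-6644 and 17.7, 17.3, 18.1 and 16.7 TPM with DMSO (0.99, SE 0.04, adjusted p = 6.24e-10). T84 had 12.1, 11.2, 10.8 and 9.05 TPM against 4.97, 7.62, 5.95 and 6.34 TPM (0.71, SE 0.11, adjusted p = 2.31e-05), and the arms did not overlap in either line. The changes were 0.60 in AsPC-1, 0.57 in A375 and 0.46 in H1048, and in T3M-4, where 1 treated library was at 5.05 TPM and the others at 14.9 and 13.8 TPM, the change of 0.68 did not pass (adjusted p = 0.0992). BRCA1, which with BARD1 forms the ubiquitin ligase that commits a break to recombination, rose in all 6 lines. H1048 had 48.1, 49.8, 50.3 and 49.2 TPM against 31.2, 30.3, 33.7 and 33.2 TPM (0.61, SE 0.04, adjusted p = 5.75e-08) and A375 had 43.9, 45.2, 43.9 and 43.8 TPM against 35.5, 35.4, 35.1 and 33.3 TPM (0.34, SE 0.03, adjusted p = 1.68e-06). In T3M-4 its change of 0.32 (adjusted p = 0.0347) was lost without any of 4 libraries (adjusted p from 0.0584 to 0.129), and after scaling it did not pass in T84 (0.09) or T3M-4 (0.22). FANCD2 rose by 0.27 in A375 and by 0.29 in AsPC-1, and after scaling both values were 0.05 and did not pass; against the same-vector DMSO library the AsPC-1 value was 0.01.

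Besides BRCA1, 6 genes rose in all 6 lines, and all 6 were chosen for naming together after their values were seen: FANCG of the core complex, the nuclease genes FAN1 and EXO1, RMI1 (a partner of the BLM helicase), the ATR partner ATRIP, and CLSPN, which couples ATR to CHEK1. Over all 10024 genes tested in the 6 lines, 10.6% rose in all 6 and 5.48% fell in all 6, against 7 and 2 of the 38. After scaling, FAN1, CLSPN and ATRIP still rose in all 6 lines, and NBN, FANCF, FANCE and TIPIN fell in all 6. The share of all genes that did so after scaling is not given. ATRIP had 50.3, 52.8, 49.1 and 45.3 TPM in A375 against 26.9, 29.2, 26.8 and 26.2 TPM (0.83, SE 0.05, adjusted p = 3.17e-08), and 36.0, 35.9, 35.1 and 36.8 TPM in H1048 against 21.3, 21.9, 22.4 and 21.1 TPM (0.70, SE 0.04, adjusted p = 9.87e-09). In both lines the lowest treated library was well above the highest DMSO library, and ATRIP changes in the other 4 lines were 0.54 to 0.59. The ATRIP annotation shares 1448 of its 5431 exonic bases with TREX1 on the same strand, and how the authors' quantification divided those reads cannot be told from gene totals.

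CLSPN rose in T84 from 16.2, 19.8, 16.2 and 17.6 TPM to 31.6, 29.7, 33.8 and 29.8 TPM (0.81, SE 0.07, adjusted p = 6e-08). In RH30 it went from 51.8, 48.3, 51.3 and 51.2 TPM to 70.3, 66.6, 71.3 and 72.9 TPM (0.46, SE 0.04, adjusted p = 1.12e-07), and the arms did not overlap in T84 or RH30. In AsPC-1 the pooled change for CLSPN was 0.87 (SE 0.17, adjusted p = 0.000917), but the 3 DMSO libraries were at 12.4, 6.81 and 6.58 TPM, and against the first, the empty-vector one, it was 0.33 (adjusted p = 0.0461). In T3M-4 the CLSPN arms overlapped (17.3, 16.3 and 13.1 against 8.06, 14.1 and 10.9 TPM, 0.49, adjusted p = 0.0442), and the call was lost without any of 4 libraries (adjusted p from 0.0971 to 0.126). EXO1, the exonuclease of long-range resection, was at 86.1, 86.0, 85.3 and 82.0 TPM in A375 against 47.7, 46.9, 47.7 and 48.0 TPM (0.82, SE 0.03, adjusted p = 3.48e-10), and in AsPC-1 its rise of 0.34 became 0.02 against the same-vector DMSO library (adjusted p = 0.824). RMI1 in A375 went from 22.3, 21.9, 21.8 and 21.9 TPM to 41.2, 43.0, 40.3 and 39.4 TPM (0.87, SE 0.04, adjusted p = 1.51e-09). FAN1 in H1048 went from 37.1, 36.1, 35.1 and 38.9 TPM to 58.9, 63.5, 65.0 and 64.1 TPM (0.76, SE 0.04, adjusted p = 1.37e-08), with no overlap between arms for either gene. FAN1 shares 1507 of its 16814 exonic bases with MTMR10 on the opposite strand.

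**Figure D2:**
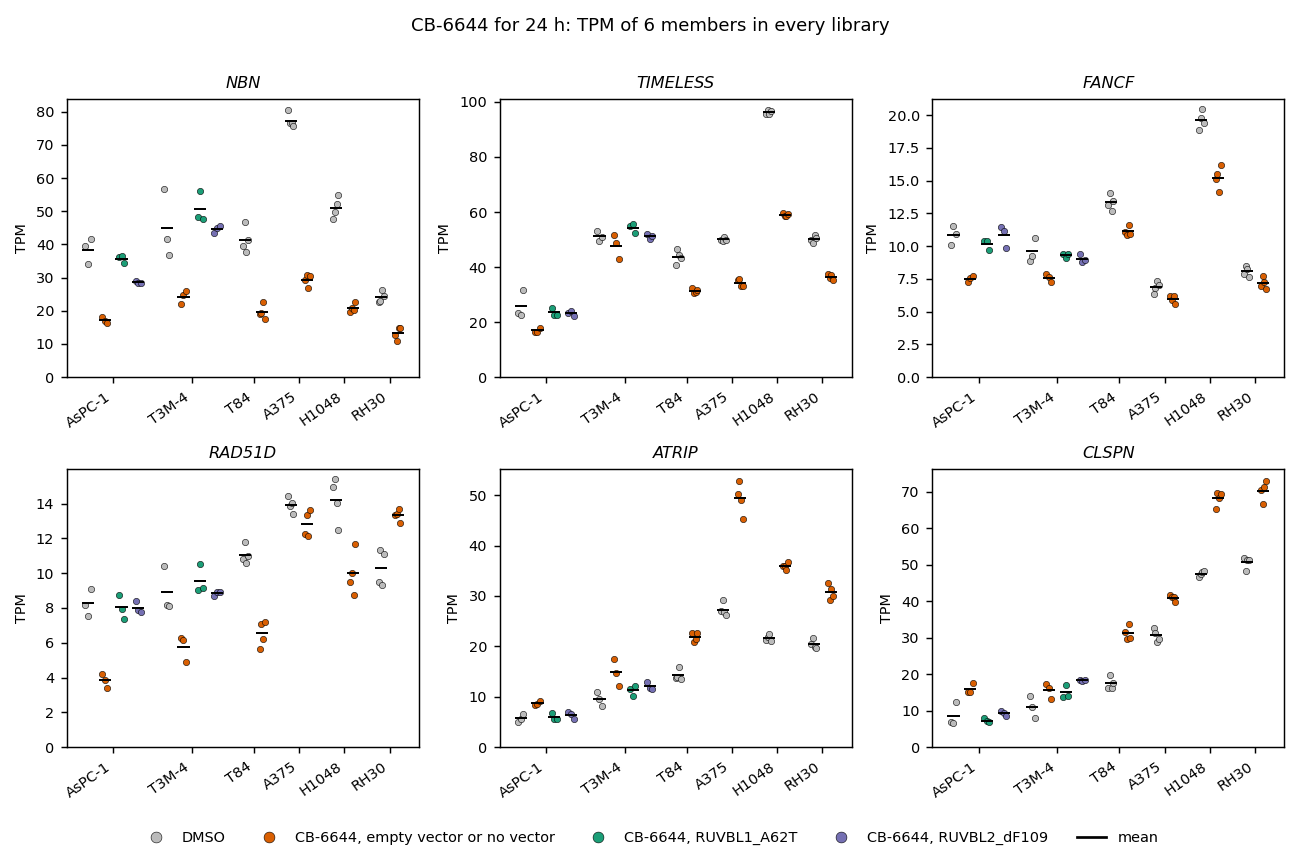
TPM of NBN, TIMELESS, FANCF, RAD51D, ATRIP and CLSPN in each library of the CB-6644 experiments, 1 panel per gene and 1 column of points per group, with a black bar at the group mean. Grey points are DMSO, orange CB-6644 with an empty or no vector, green RUVBL1_A62T and purple RUVBL2_dF109. NBN falls from 80.4, 76.6, 76.5 and 75.7 TPM to 29.3, 30.8, 26.8 and 30.6 TPM in A375, and the green and purple points of NBN and RAD51D lie above the orange points in AsPC-1 and T3M-4.

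The same treatment was given to pancreatic cells that express a resistance variant. In AsPC-1 with RUVBL1_A62T, 1 of the 38 genes rose and 0 fell with CB-6644 against DMSO (12.7% of all genes were called), and with RUVBL2_dF109, 8 rose and 1 fell (33.4%). Compared directly in CB-6644, RUVBL1_A62T against Lv-Empty gave 4 higher and 21 lower (51.1% of all genes) and RUVBL2_dF109 against Lv-Empty gave 6 higher and 14 lower (47.2%). In T3M-4, 13 rose and 1 fell with RUVBL1_A62T against DMSO (50%) and 25 rose and 0 fell with RUVBL2_dF109 (37.6%), where the median over the 38 genes was 0.21 and 0.38 and that over all genes 0.33 and 0.29. The direct comparisons in T3M-4 gave 7 higher and 5 lower with RUVBL1_A62T (50.6%) and 9 higher and 1 lower with RUVBL2_dF109 (34.6%). In T3M-4 the share of the 38 genes called was above that of all genes only with RUVBL2_dF109 against DMSO, and below it otherwise. In AsPC-1 it was below against DMSO and above against Lv-Empty for both variants. No test set the list against other genes. Scaling turned several of these splits: to 0 and 6 (RUVBL1_A62T) and 2 and 11 (RUVBL2_dF109) against DMSO in AsPC-1, to 0 and 10 and to 2 and 6 in T3M-4, to 7 and 16 and to 7 and 13 against Lv-Empty in AsPC-1, and to 2 and 14 and to 3 and 3 in T3M-4. RUVBL1 was at 1785 to 2964 TPM in the RUVBL1_A62T libraries and RUVBL2 at 1055 to 2178 TPM in the RUVBL2_dF109 libraries.

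NBN and RAD51D were higher with either variant than with Lv-Empty in both lines, in all 4 direct comparisons. In AsPC-1 in CB-6644, NBN was at 36.1, 36.6 and 34.4 TPM with RUVBL1_A62T and 28.9, 28.5 and 28.3 TPM with RUVBL2_dF109, against the 18.1, 16.9 and 16.4 TPM of Lv-Empty (1.01, SE 0.07, adjusted p = 9.13e-07; and 0.70, SE 0.07, adjusted p = 1.44e-05). In T3M-4, NBN was at 48.1, 56.1 and 47.7 TPM and 43.3, 44.9 and 45.6 TPM, against 22.1, 24.7 and 25.9 TPM (1.03, adjusted p = 0.000386; and 0.86, adjusted p = 0.00279). The variant libraries lay wholly above the Lv-Empty libraries each time, and in AsPC-1 with RUVBL2_dF109 NBN was still below DMSO (-0.41, adjusted p = 0.00279). RAD51D in AsPC-1 was at 8.77, 7.96 and 7.38 TPM with RUVBL1_A62T and 8.40, 7.87 and 7.77 TPM with RUVBL2_dF109, against 4.23, 3.86 and 3.43 TPM (0.90 each, adjusted p = 1.07e-05 and 1.47e-05). In T3M-4 RAD51D was at 9.02, 10.6 and 9.15 TPM and 8.72, 8.93 and 8.93 TPM, against 6.30, 6.16 and 4.89 TPM (0.65, adjusted p = 0.00211; and 0.55, adjusted p = 0.00972).

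Several genes that had risen in empty-vector AsPC-1 were lower with the variants. CLSPN was at 7.96, 7.05 and 6.77 TPM with RUVBL1_A62T and 9.81, 9.43 and 8.44 TPM with RUVBL2_dF109, against 15, 15.1 and 17.6 TPM with Lv-Empty (-1.03, adjusted p = 0.000411; and -0.73, adjusted p = 0.00461). RMI2, another BLM partner, changed by -0.63 and EXO1 by -0.61 with RUVBL1_A62T, and RMI1 by -0.57 and RBBP8 by -0.55 with RUVBL2_dF109. BRCA1 (-0.39 and -0.27) and BRCA2 (-0.48 and -0.33) were lower with both variants, and FANCF was higher with RUVBL2_dF109 (0.47, adjusted p = 0.000399) and TIMELESS with RUVBL1_A62T (0.45, adjusted p = 0.00311). Leaving out any of 3 libraries ended the BRCA1 call with RUVBL2_dF109 (adjusted p from 0.0602 to 0.0876), and leaving out 1 ended the BRCA2 call there (adjusted p = 0.0534).

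In T3M-4 the direct comparisons gave EXO1 lower with RUVBL1_A62T (-0.56, adjusted p = 0.000394) and RAD50 higher with both (0.53, adjusted p = 0.00261; and 0.57, adjusted p = 0.00461). Against DMSO, BRCA2 rose with RUVBL1_A62T (0.87, adjusted p = 0.0325) and RUVBL2_dF109 (1.1, adjusted p = 0.0165), XRCC2, another gene of strand exchange, rose by 0.65 and 0.78, FANCM by 0.82 with RUVBL2_dF109, and UBE2T fell with RUVBL1_A62T (-0.30, adjusted p = 0.00718). After scaling, BRCA2 (0.52 and 0.79), XRCC2 with RUVBL1_A62T (0.28) and FANCM (0.51) did not pass, nor did RAD50 against Lv-Empty with RUVBL1_A62T (0.24). Against the DMSO library of their own vector, none of the 38 genes was called with RUVBL1_A62T in T3M-4 or AsPC-1, where that comparison has 1 control library. In AsPC-1, FAN1 was the gene called with RUVBL1_A62T (0.30, adjusted p = 0.0232), and SLX4 (0.44), FAN1 (0.36) and RMI2 (0.34) led those with RUVBL2_dF109. Each of these 4 calls except FAN1 with RUVBL2_dF109 was lost without some single library, and after scaling FAN1 did not pass with either variant (0.17 and 0.18).

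Knockout of RUVBL1 lowered more of the 38 genes than it raised in 4 of 5 comparisons. In AsPC-1 experiment 2, 3 rose and 21 fell (55.8% of all genes were called). In T3M-4 experiment 2, 1 rose and 19 fell (60.5%). In BxPC-3 experiment 2, 0 rose and 8 fell (16%), and in CFPAC-1, 1 rose and 21 fell (43.8%). In AsPC-1 experiment 3, 10 rose and 8 fell (51.9%). The median over the 38 genes was -0.30, -0.28, -0.26, -0.33 and 0.09 in that order, beside 0.02, 0.25, 0.01, -0.20 and 0.16 over all genes. With median-of-ratios scaling the splits were 2 higher and 25 lower in AsPC-1 experiment 2, 0 and 29 in T3M-4, 2 and 13 in CFPAC-1, and 7 and 10 in AsPC-1 experiment 3. Knockout of RUVBL2 gave 4 higher and 6 lower in AsPC-1 experiment 3 (43.2%; 3 and 13 after scaling), 0 and 25 in T3M-4 (54.5%; 0 and 32), 0 and 8 in BxPC-3 (9.76%; 0 and 13) and 0 and 4 in CFPAC-1 (12.1%). Before scaling, the share of the 38 genes called with sgRUVBL1 was below that of all genes in T3M-4 and AsPC-1 experiment 3. It was above that of all genes in the other sgRUVBL1 comparisons. With sgRUVBL2 it was above in T3M-4 and BxPC-3 and below in AsPC-1 and CFPAC-1. The share of all genes that fell is not given, and no test set the list against other genes. In these bulk libraries, fewer cells that express a gene and less RNA per cell cannot be told apart.

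**Figure D3:**
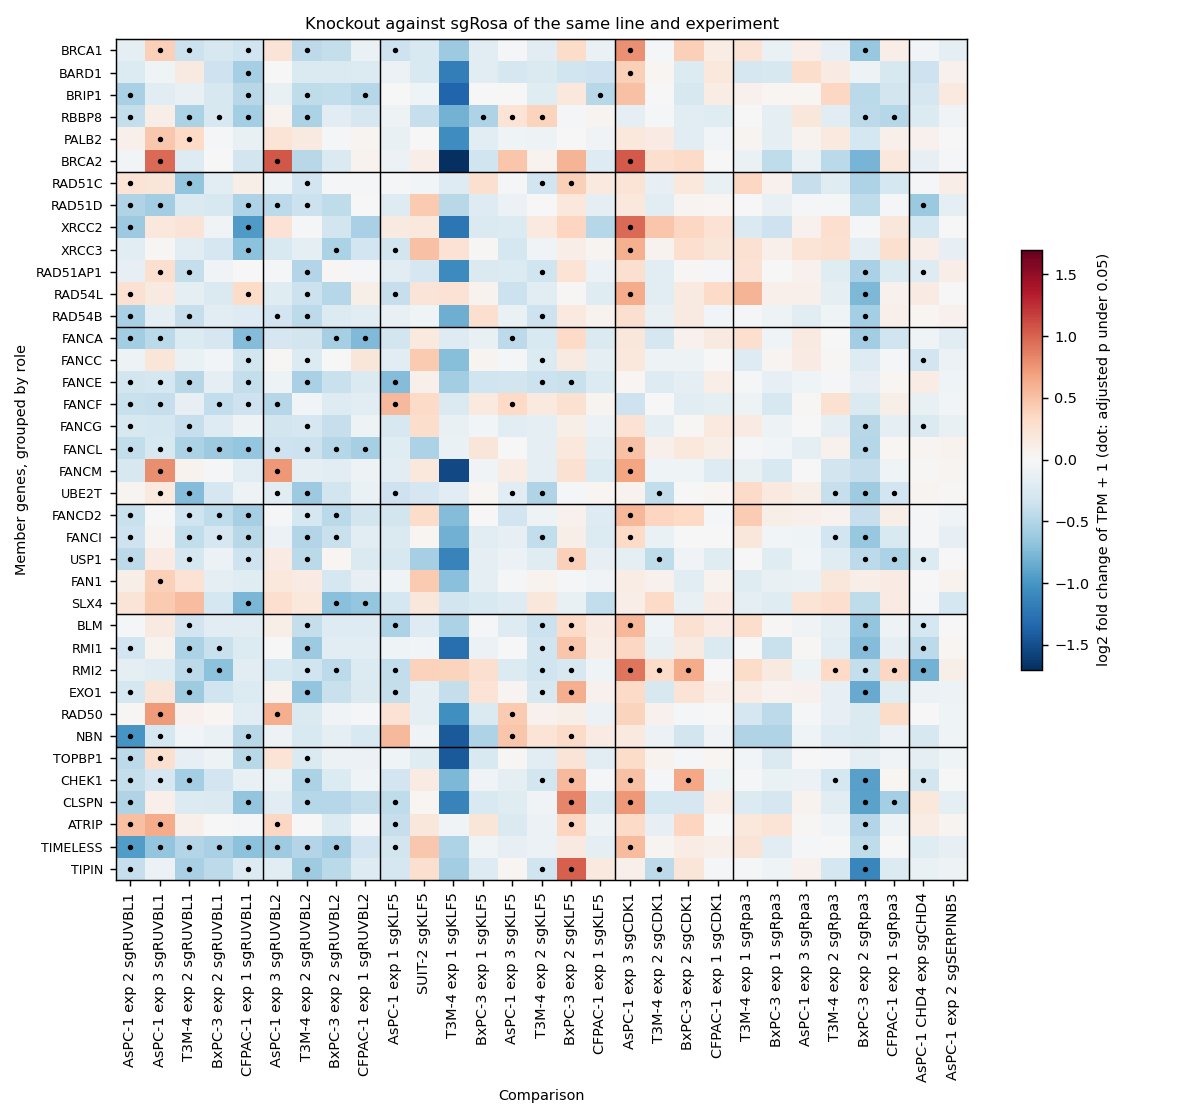
Heat map of the change against sgRosa for the 38 genes (rows, grouped by role) in 25 knockout comparisons (columns, grouped by target), as the difference of log2(TPM + 1). Red is higher and blue lower in the knockout, and a dot marks an adjusted p under 0.05. The TIMELESS and FANCL rows are blue with a dot in all 5 sgRUVBL1 columns, and the sgCDK1 column of AsPC-1 holds 15 red dots.

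TIMELESS and FANCL fell in all 5 sgRUVBL1 comparisons, as did 2.02% of the 10718 genes tested in all 5, and no member rose in all 5 (1.7% of genes did). TIMELESS in AsPC-1 experiment 2 was at 19.6, 23.1, 19.8 and 21.1 TPM against 39.3, 40.8, 42.5 and 42.9 TPM in sgRosa (-0.95, SE 0.10, adjusted p = 1.33e-06). In experiment 3 it was at 16.5, 18.9, 21.6 and 18.1 TPM against 33.1, 34.2, 30.1 and 25.0 TPM (-0.67, SE 0.11, adjusted p = 5.05e-05). CFPAC-1 had 17.8, 23.0, 23.1 and 26.0 TPM against 38.3, 36.8, 36.7 and 34.6 TPM (-0.69, SE 0.09, adjusted p = 7.76e-05). The knockout libraries lay below sgRosa in each, and did so also in BxPC-3 (23.3, 24.5, 23.2 and 24.5 against 39.5, 37.2, 32.9 and 33.1 TPM, -0.56, adjusted p = 0.000406) and T3M-4 (36.2, 37.4 and 40.2 against 58.7, 60.4, 54.9 and 42.9 TPM, -0.49, adjusted p = 0.000495). With sgRUVBL2, TIMELESS fell in AsPC-1 (22.2, 16.4, 20.3 and 20.2 TPM, -0.60, adjusted p = 0.000251), BxPC-3 (25.9, 24.7 and 19.8 TPM, -0.59, adjusted p = 0.00186) and T3M-4 (-0.50, adjusted p = 0.000247), and in CFPAC-1 the change was -0.32 (adjusted p = 0.0732).

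FANCL fell by 0.28 (AsPC-1 experiment 3) to 0.65 (CFPAC-1) with sgRUVBL1. CFPAC-1 libraries had 24.0, 21, 29.8 and 22.9 TPM against 42.3, 35, 41.6 and 36.5 TPM (SE 0.10, adjusted p = 0.000191). BxPC-3 libraries had 19.6, 17.4, 19.6 and 20.2 TPM against 32.2, 31.4, 24.8 and 32.6 TPM (-0.62, SE 0.11, adjusted p = 0.000923). T3M-4 had 29.6, 23.8 and 24.1 TPM against 38.6, 38.9, 39.6 and 33.8 TPM (-0.54, SE 0.10, adjusted p = 0.000224). Knockout and control libraries did not overlap in these 3 lines. With sgRUVBL2, FANCL fell in all 4 lines (-0.35 in AsPC-1, -0.37 in T3M-4, -0.48 in BxPC-3 and -0.57 in CFPAC-1), as did 0.576% of the 10940 genes tested in all 4. The CFPAC-1 call rests on 2 libraries (23.6 and 28.2 TPM) and was lost without the first (-0.45, adjusted p = 0.137), and that in BxPC-3 was lost without sgRUVBL2 replicate 3 (-0.34, adjusted p = 0.0635). FANCA, a core subunit, fell in AsPC-1 experiments 2 and 3 and in CFPAC-1 with sgRUVBL1 (-0.59, -0.45 and -0.74). FANCA changed by -0.23 in T3M-4 and -0.29 in BxPC-3, where it did not pass (adjusted p = 0.171 and 0.138, limma). After scaling it fell in all 5. FANCA shares 2409 of its 12316 exonic bases with ZNF276, and FANCL shares 572 of 37977 with VRK2.

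**Figure D4:**
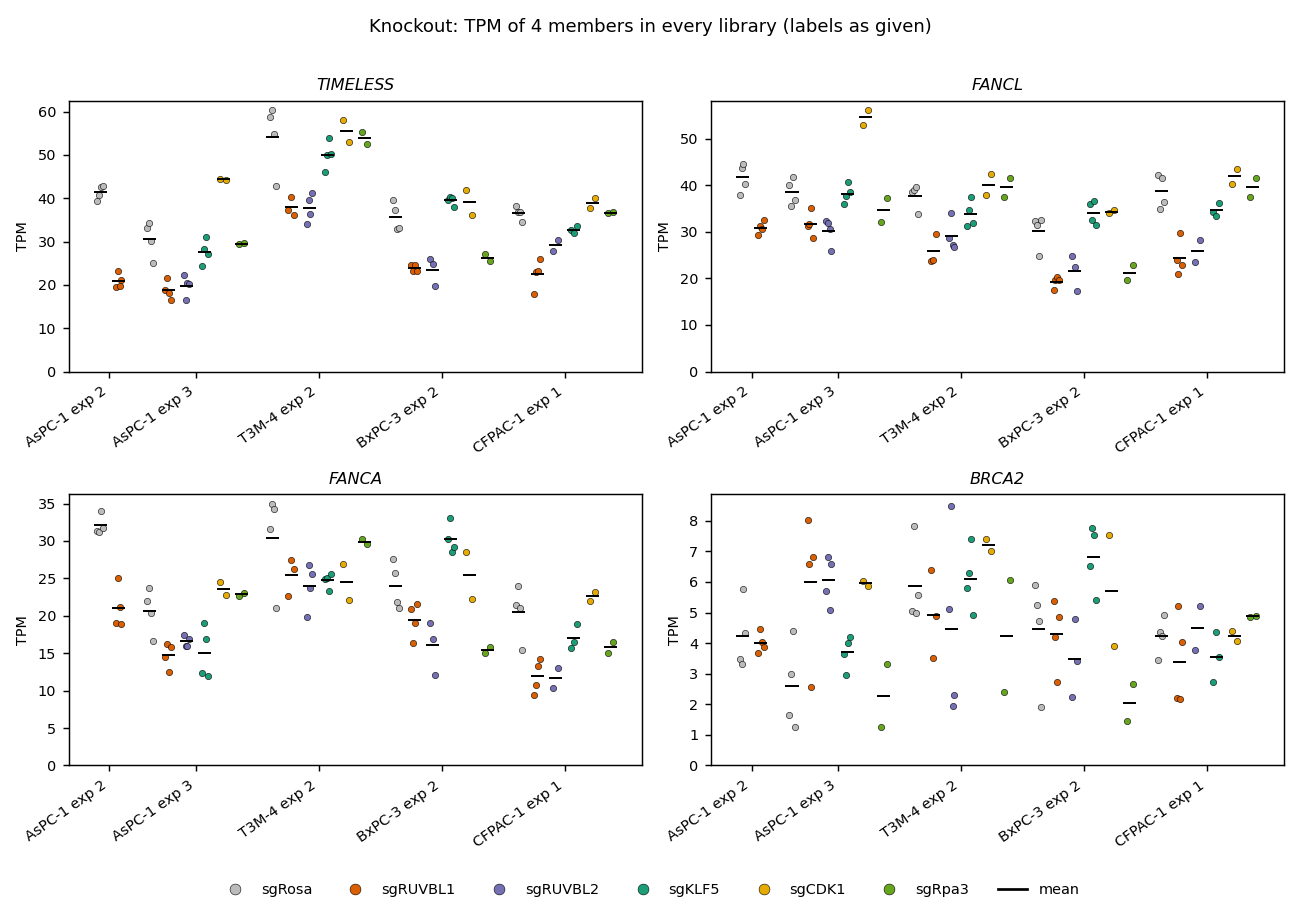
TPM of TIMELESS, FANCL, FANCA and BRCA2 in each library of the 5 experiments that hold sgRUVBL1, 1 panel per gene, with a black bar at the group mean. Grey is sgRosa, orange sgRUVBL1, purple sgRUVBL2, green sgKLF5, yellow sgCDK1 and olive sgRpa3, as labelled. The orange TIMELESS points lie below the grey ones in all 5 experiments, whereas the orange BRCA2 points lie mostly above the grey ones in AsPC-1 experiment 3 (6.82, 8.02, 6.58 and 2.56 against 1.66, 3.0, 4.40 and 1.26 TPM).

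Other genes that fell with sgRUVBL1 differed by line. In AsPC-1 experiment 2 NBN was at 16.6, 18.4, 16.1 and 17.6 TPM against 35.6, 28.2, 43.0 and 36.7 TPM (-1.01, SE 0.11, adjusted p = 1.08e-06). NBN also fell in AsPC-1 experiment 3 (-0.30, adjusted p = 0.0248, lost without any of 3 libraries) and in CFPAC-1 (-0.47, adjusted p = 0.00118), its change was -0.04 in T3M-4 and -0.12 in BxPC-3, and it was called in none of the 4 sgRUVBL2 comparisons. In T3M-4 the largest falls were UBE2T (113, 103 and 108 against 200, 182, 169 and 174 TPM, -0.74, adjusted p = 8.84e-07), RAD51C (50.7, 45.4 and 40.0 against 76.9, 70.2, 65.8 and 78.7 TPM, -0.68, adjusted p = 6.37e-06) and EXO1 (17.4, 15.4 and 14.6 against 27, 24.8, 23.3 and 23.3 TPM, -0.61, adjusted p = 2.56e-05). All 3 genes were lower in every knockout library than in any control library. T3M-4 with sgRUVBL2 gave EXO1 at 13.4, 16.6, 14.9 and 15.8 TPM (-0.67, adjusted p = 4.84e-06), RMI1 -0.62 and UBE2T at 116, 115, 119 and 120 TPM (-0.62, adjusted p = 2.47e-06). BRCA1 fell in T3M-4 with both (-0.36 and -0.45) and in CFPAC-1 with sgRUVBL1 (-0.34, adjusted p = 0.0024), and the CFPAC-1 value was -0.13 after scaling (adjusted p = 0.117). RAD51AP1 fell in T3M-4 with both (-0.40 and -0.49).

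In BxPC-3, RMI2 fell most with sgRUVBL1 (20.4, 20.3, 17.5 and 20.7 against 33.6, 33.0, 32.2 and 31.4 TPM, -0.70, SE 0.09, adjusted p = 0.000125) and SLX4 with sgRUVBL2 (-0.71, adjusted p = 0.0164). In CFPAC-1 the largest falls with sgRUVBL1 were XRCC2 (4.58, 8.95, 6.48 and 8.89 against 16.5, 18.6, 12 and 12.5 TPM, -0.97, SE 0.21, adjusted p = 0.00189), SLX4 (2.31, 3.45, 3.47 and 3.75 against 7.36, 6.84, 6.46 and 4.53 TPM, -0.78) and FANCA (9.36, 10.7, 13.2 and 14.3 against 21.4, 24.0, 21 and 15.5 TPM, -0.74). For none of these did a knockout library reach the lowest control library. FANCD2 fell with sgRUVBL1 in AsPC-1 experiment 2 (-0.38, adjusted p = 0.0031), T3M-4 (-0.33, adjusted p = 0.0243), BxPC-3 (-0.43, adjusted p = 0.0314) and CFPAC-1 (-0.56, adjusted p = 0.000332). The FANCD2 calls in T3M-4 and BxPC-3 were each lost without some single libraries, with adjusted p up to 0.0747 and 0.104. FANCC fell in CFPAC-1 (-0.32, adjusted p = 0.0196) and was -0.12 after scaling. In CFPAC-1 with sgRUVBL2 the falls of FANCA (-0.75), SLX4 (-0.66) and FANCL were all lost without sgRUVBL2 replicate 1, and in BxPC-3 those of SLX4 and FANCA (-0.57) without sgRUVBL2 replicate 3.

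A smaller set rose, mostly in AsPC-1. In experiment 3 RAD50 was at 71.2, 72.3, 66 and 53.6 TPM with sgRUVBL1 against 38.3, 36.4, 50.5 and 33.9 TPM (0.72, SE 0.12, adjusted p = 6.42e-05). FANCM was at 4.84, 7.71, 4.80 and 4.05 TPM against 2.85, 2.38, 3.49 and 1.85 TPM (0.79, SE 0.18, adjusted p = 0.00129), and ATRIP rose by 0.63 (adjusted p = 6.86e-05). BRCA2 rose by 0.97 with sgRUVBL1, with overlap, and by 1.06 with sgRUVBL2 (5.71, 6.80, 5.10 and 6.6 TPM, SE 0.28, adjusted p = 0.00517), above every sgRosa library. With sgRUVBL2, FANCM (0.74) and RAD50 (0.62) rose too, and TIMELESS, FANCF (-0.48) and RAD51D (-0.45) led the falls; the RAD51D value was -0.24 without sgRUVBL2 replicate 2 (adjusted p = 0.0819). RAD50 shares 8124 of its 10565 exonic bases with a read-through gene. In experiment 2 ATRIP rose, from 11.6, 12.5, 10.1 and 12.1 TPM to 17.2, 17.8, 16.7 and 15.8 TPM (0.51, SE 0.09, adjusted p = 0.000143), with RAD54L (0.26) and RAD51C (0.23, which did not pass after scaling). In T3M-4, PALB2, the link between BRCA1 and BRCA2, rose with sgRUVBL1 (0.34, adjusted p = 0.00735) and was 0.06 after scaling (adjusted p = 0.516).

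Tested directly, sgRUVBL1 and sgRUVBL2 differed in 1 of the 38 genes in AsPC-1 (UBE2T, higher with sgRUVBL1; 3.71% of all genes were called) and in none in T3M-4 (0.0226%; 3 members at an unadjusted p under 0.05 by limma), BxPC-3 (0.0323%; 2 members) and CFPAC-1 (0.0235%; 9 members). A p that misses the threshold does not show that the 2 knockouts act alike on these genes.

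The 2 AsPC-1 experiments with sgRUVBL1 were not alike: the change differed between them for 14 of the 38 genes (23.8% of all genes). The differences, experiment 3 minus experiment 2, were 1.06 for FANCM, 0.81 for XRCC2, 0.73 for TOPBP1 (which activates ATR), 0.70 for NBN, 0.69 for RAD50, 0.60 for CLSPN, 0.58 for USP1 and 0.55 for BRCA1. TIMELESS, FANCL, FANCA and RAD51D fell in both.

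Across lines, the response to sgRUVBL1 differed for 25 of the 38 genes (71.6% of all genes, F test over AsPC-1 experiment 3, T3M-4, BxPC-3 and CFPAC-1). RAD50 changed by 0.72, 0.08, 0.03 and -0.19 in that order (adjusted p = 0.000212), SLX4 by 0.44, 0.53, -0.30 and -0.78 (adjusted p = 4e-04), BRCA1 by 0.40, -0.36, -0.27 and -0.34 (adjusted p = 4.84e-05) and UBE2T by 0.17, -0.74, -0.28 and -0.08 (adjusted p = 2.43e-07). For TIMELESS the difference between lines did not pass (adjusted p = 0.52), nor for FANCL (adjusted p = 0.0581). The response to sgRUVBL2 differed for 16 genes (54.3% of all genes), among them BRCA2 (1.06, -0.47, -0.25 and 0.06, adjusted p = 0.00761). For CB-6644 in T84, A375, H1048 and RH30, 36 genes differed (86.2% of all genes), led by RAD54L (0.10, 1.06, 0.64 and 0.78), XRCC2 (0.51, 0.65, 0.61 and -0.23), XRCC3 (0.30, 0.70, 0.68 and -0.18) and RAD51D (-0.68, -0.11, -0.47 and 0.34), and FANCF did not pass (adjusted p = 0.0553). XRCC3 shares 5756 of its 7507 exonic bases with KLC1.

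**Figure D5:**
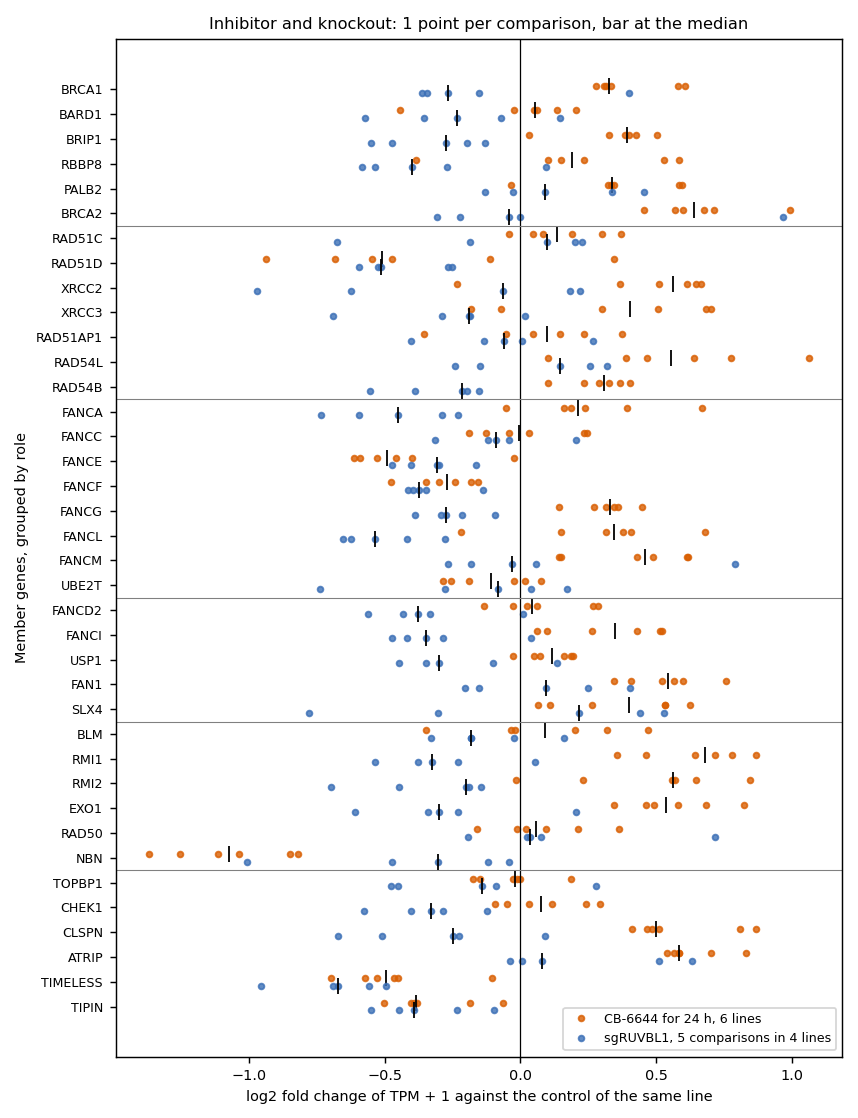
Change of each of the 38 genes with CB-6644 at 24 h (orange, 6 lines) and with sgRUVBL1 on day 5 (blue, 5 comparisons in 4 lines), as the difference of log2(TPM + 1), 1 point per comparison and a bar at the median. TIMELESS lies below 0 in both colours, while FANCL lies mostly above 0 with CB-6644 (up to 0.68) and below 0 with sgRUVBL1 (down to -0.65). Values are unscaled, and after scaling FANCL was called higher in 1 and lower in 1 of the 6 lines with CB-6644.

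The inhibitor and the knockout differ in time and in line, so their values are set side by side without a test. TIMELESS fell in 5 of 6 inhibitor comparisons and 5 of 5 sgRUVBL1 comparisons. NBN fell in 6 of 6 and in 3 of 5. FANCL rose in 4 of 6 and fell in 5 of 5, and in AsPC-1 it was 0.41 with CB-6644 and -0.42 and -0.28 with sgRUVBL1. After scaling, FANCL rose in 1 and fell in 1 of the 6 inhibitor comparisons and fell in 5 of 5 with sgRUVBL1. Its rise with CB-6644 in AsPC-1 did not pass after scaling. Of the 38 genes, 10 were called in both directions over the 6 inhibitor comparisons and 5 over the 5 sgRUVBL1 comparisons. The share of all genes called in both directions is not given, so these counts are no result about these genes.

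Knockout of KLF5 gave calls in both directions. In experiment 2 of T3M-4 and of BxPC-3, the share of members called was close to that of all genes. It was below that of all genes in AsPC-1 experiment 3, so the counts in these 3 are no result about these genes. In AsPC-1 experiment 1 it was somewhat above, and no test set the list against other genes. In T3M-4 experiment 2, 1 rose and 13 fell (34.6% of all genes; 0 and 25 after scaling). UBE2T was at 122, 119, 138 and 129 TPM against 200, 182, 169 and 174 TPM (-0.51, SE 0.07, adjusted p = 3.51e-05), FANCI fell by 0.41, BLM by 0.37 and RAD51AP1 by 0.33 on the log2 scale, and RBBP8 rose from 70.6, 68.1, 72.1 and 82.7 TPM to 93.7, 94.0, 100 and 95.8 TPM (0.39, adjusted p = 0.00248; 0.25 and not called after scaling). For UBE2T and RBBP8 the groups did not overlap. In AsPC-1 experiment 1, 1 rose and 11 fell (25.9%; 1 and 18 after scaling), led by FANCE, with 5.26 to 7.63 TPM in 6 libraries against 12.6 and 10.6 TPM (-0.74, SE 0.14, adjusted p = 0.00324), BLM (-0.54) and CLSPN (-0.44), and FANCF rose (0.55, adjusted p = 0.0144). With 2 controls there, leaving out sgRosa replicate 1 or 2 left 1 or 2 called members, and the FANCE call was lost without sgRosa replicate 1 (-0.63, adjusted p = 0.0537). In AsPC-1 experiment 3, 4 rose and 2 fell (27.8%; 3 and 8 after scaling): NBN (0.47, adjusted p = 0.00254), RAD50 (0.44), FANCF (0.34) and RBBP8 (0.24) rose and UBE2T fell by 0.19.

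In BxPC-3 experiment 2, 10 genes rose and 2 fell with sgKLF5 (34.6% of all genes were called, close to the share of the members). TIPIN was at 41.4, 32.3, 31.2 and 30.5 TPM against 19.0, 17.9, 16.9 and 11.7 TPM (1.01, SE 0.16, adjusted p = 8.06e-05). CLSPN was at 19.9, 19.0, 18.5 and 18.0 TPM against 12.9, 11.4, 9.10 and 8.04 TPM (0.82, SE 0.15, adjusted p = 0.00048), and EXO1 rose by 0.61. Of the 6 checkpoint and fork-protection genes 4 rose, with a median of 0.46 against 0.05 over all genes. FANCE (-0.38) and RMI2 (-0.28) fell, and both calls were lost without some single libraries. In BxPC-3 experiment 1, 1 gene fell, RBBP8 (16.2% of all genes; 53.2, 48.9, 47.4 and 45.3 against 71.1 and 70.2 TPM, -0.53, adjusted p = 0.015), and the call was lost without either control library (adjusted p = 0.132 and 0.117). The effect of sgKLF5 differed between the 2 BxPC-3 experiments for 8 of the 38 genes (19.8% of all genes). That count is close to the share of all genes and is no result about these genes. The differences were 1.23 for TIPIN, 1.09 for CLSPN, 0.86 for NBN and -0.55 for RMI2. The effect differed for 0 of the 38 genes between the AsPC-1 experiments (4.6%) and between those in T3M-4 (1.67%). Across lines, 18 genes differed (53.2%), with TIPIN at 0.03 in AsPC-1 experiment 3, -0.34 in T3M-4, 1.01 in BxPC-3 and 0.17 in CFPAC-1 (adjusted p = 2.75e-07).

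In CFPAC-1, sgKLF5 lowered 1 gene, the helicase gene BRIP1 (16.2% of all genes; 13.2, 16.0 and 15 against 19.5, 20.6, 18.4 and 25.2 TPM, -0.48, adjusted p = 0.0149), and the call was lost after scaling (-0.35, adjusted p = 0.0532), where 3 other members were called higher. In SUIT-2 no member was called (3.94% of all genes, 1 member at an unadjusted p under 0.05 by limma). SUIT-2 sgKLF5 replicate 4 was far below the other sgKLF5 libraries for NBN (9.05 against 29.6, 56.3 and 62.7 TPM). The same held for RAD50 (2.59 against 13.2, 32.1 and 32.8 TPM), but not for XRCC3 (36.5 against 32.1, 26.7 and 32.7 TPM). With that spread, no call does not show that these genes were unchanged. In T3M-4 experiment 1 none was called either (5.72%, 10 members at an unadjusted p under 0.05 by limma, 0 higher and 9 lower after scaling). There, 27 members lay below both control libraries without overlap (36.9% of all genes did). The median was -0.72 beside -0.22 over all genes, and without sgKLF5 replicate 2, which stood apart, 18 members were called lower (37% of all genes were called in that fit).

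The other knockouts follow in turn. In AsPC-1, sgCHD4 gave 0 higher and 9 lower (50% of all genes). The share of members called was well below that of all genes, so this count is no result about these genes. RMI2 was at 16.2, 15.4, 18.6 and 15.6 TPM against 31.3, 29.2, 30.0 and 26.9 TPM (-0.80, SE 0.08, adjusted p = 6.2e-06). RAD51D was at 6.4, 5.65, 7.27 and 5.30 TPM against 9.48, 10.0, 10.4 and 10.1 TPM (-0.63, SE 0.10, adjusted p = 0.000305). Knockout and control libraries did not overlap for either, and RMI1 fell by 0.44. FANCC (-0.33, adjusted p = 0.0295) and RAD51AP1 (-0.21, adjusted p = 0.0439) fell with calls that several single libraries decided. With sgSERPINB5, which targets a gene outside DNA repair, no member was called, nor was any at an unadjusted p under 0.05 by limma (0.0343% of all genes).

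CDK1 encodes the mitotic kinase and RPA3, the target of sgRpa3, a subunit of the single-strand binding protein RPA. In AsPC-1, sgCDK1 raised 15 and lowered 0 of the 38 genes (16.7% of all genes; median 0.32 against 0.04). XRCC2 was at 25.7 and 29.5 TPM against 14.4, 14.8, 14.1 and 11.4 TPM (0.96, SE 0.19, adjusted p = 0.00159). RMI2 was at 40.9 and 40.5 TPM against 23.1, 20.9, 21 and 19.6 TPM (0.91, adjusted p = 0.00302), and BRCA1 rose by 0.78 (adjusted p = 0.000332). BRCA2 (1.04, adjusted p = 0.0416) and FANCD2 (0.57, adjusted p = 0.0142) rose with calls lost without either sgCDK1 library. In T3M-4, sgCDK1 gave 1 higher and 3 lower (16.8%; 0 and 10 after scaling), and in BxPC-3 2 higher and 0 lower (5.82%): CHEK1, the kinase that ATR activates, at 45.2 and 40.9 TPM against 33.8, 29.3, 26.8 and 19.9 TPM (0.65, adjusted p = 0.0163) and RMI2 at 50.1 and 52.2 TPM (0.64, adjusted p = 0.00193). The CHEK1 call was lost without either sgCDK1 library (adjusted p = 0.196 and 0.0934). CFPAC-1 libraries labelled sgCDK1 gave no call (0% of all genes; 3 members at an unadjusted p under 0.05 by limma), and those labelled sgRpa3 gave 1 higher and 4 lower (11.6%), with USP1 lower by 0.54 and CLSPN by 0.58.

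In BxPC-3 experiment 2, sgRpa3 lowered 20 of the 38 genes and raised 0 (20.8% of all genes; median -0.45 against 0.02). TIPIN was at 7.22 and 6.75 TPM (-1.10, SE 0.19, adjusted p = 0.000834), CHEK1 at 14.1 and 13.6 TPM (-0.92, adjusted p = 0.000659) and CLSPN at 4.89 and 5.08 TPM (-0.91, adjusted p = 0.00276), each below all 4 sgRosa libraries. In BxPC-3 experiment 1 no member was called with sgRpa3, nor at an unadjusted p under 0.05 by limma (0.307%). The effect differed between the BxPC-3 experiments for 6 of the 38 genes (16.2% of all genes, close to the share of the members). The differences were -1.03 for TIPIN, -0.93 for EXO1 and -0.85 for RAD54L. No member was called with sgRpa3 in AsPC-1 (0.654%; 2 at an unadjusted p under 0.05 by limma) or T3M-4 experiment 1 (0%; 0 at that p), and in T3M-4 experiment 2, 1 rose and 3 fell (24.6%; 0 and 15 after scaling), UBE2T by the most (-0.39, adjusted p = 0.00492; lost without sgRpa3 replicate 1). Compared directly in AsPC-1, sgKLF5, sgRUVBL1 and sgRUVBL2 gave 19, 18 and 20 members lower and 2, 3 and 1 higher than sgCDK1 (32.2%, 48.2% and 41.5% of all genes), and in BxPC-3 sgKLF5 gave 30 higher and 0 lower than sgRpa3 (50.8%). Against sgRpa3, sgKLF5 gave 2 higher and 4 lower in AsPC-1 (3230 of 12224 genes called). It gave 5 and 3 in CFPAC-1 as labelled (4925 of 12748). In T3M-4 it gave 0 and 0 in experiment 1 (462 of 12636) and 2 and 2 in experiment 2 (3489 of 13246). BxPC-3 experiment 1 gave 0 and 0 (2287 of 12398). Further direct comparisons with sgCDK1 and sgRpa3 were run and are not listed here. All direct comparisons share libraries with those against sgRosa.

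Other genes of the pathway, 58 of 62 listed, and lists of cell-cycle genes moved beside the 38. The share of all genes called with sgRUVBL1 was 60.5% in T3M-4, 55.8% in AsPC-1 experiment 2 and 51.9% in AsPC-1 experiment 3. In BxPC-3 it was 16% and in CFPAC-1 43.8%. With CB-6644 it was 64.4% in AsPC-1, 34.3% in T3M-4, 71.4% in T84 and 81.1% in A375. It was 77.9% in H1048 and 77.7% in RH30. With sgCDK1 in AsPC-1 it was 16.7%, and with sgKLF5 in BxPC-3 experiment 2 34.6%. With sgRUVBL1, 13 of the other homologous recombination and Fanconi genes rose and 16 fell in T3M-4, 15 and 27 in AsPC-1 experiment 2, 23 and 8 in AsPC-1 experiment 3, 1 and 9 in BxPC-3 and 2 and 25 in CFPAC-1. Of 24 replication licensing and synthesis genes, 23 fell in T3M-4 (median -0.53), 19 in AsPC-1 experiment 2, 6 in AsPC-1 experiment 3 (median -0.14), 14 in BxPC-3 and 19 in CFPAC-1. Of 22 mitosis genes 21 fell in T3M-4 (median -0.94), 19 in AsPC-1 experiment 2, 12 in AsPC-1 experiment 3, 16 in BxPC-3 and 13 in CFPAC-1. With CB-6644, 30 of the other recombination genes rose and 7 fell in AsPC-1, 13 and 5 in T3M-4, 30 and 7 in T84, 31 and 18 in A375, 36 and 12 in H1048 and 27 and 12 in RH30. Of the 24 replication genes, 7 rose and 5 fell with CB-6644 in AsPC-1, 4 and 5 in T3M-4, 5 and 12 in T84, 6 and 13 in A375, 11 and 9 in H1048 and 6 and 16 in RH30. Of the 22 mitosis genes, 3 rose and 12 fell in AsPC-1, 4 and 6 in T3M-4, 9 and 10 in T84, 1 and 18 in A375, 1 and 21 in H1048 and 2 and 12 in RH30. Of 18 p53 target genes 13 rose and 2 fell in AsPC-1, 6 and 4 in T3M-4, 16 and 1 in A375 (median 1.32) and 9 and 5 in H1048. Of 17 tested in the other lines, 9 rose and 6 fell in T84 and 11 and 4 in RH30. In AsPC-1 with sgCDK1, 13 replication genes and 18 mitosis genes rose, and in BxPC-3 with sgKLF5 20 replication genes rose (median 0.48) while 7 mitosis genes fell. The part of cell-cycle position in the changes of the 38 genes was not tested.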

How the data were processed

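RNA-seq libraries (183, poly-A selected, unstranded, single-end) were quantified by the authors with kallisto against hg38 and summed to genes, and the authors deposited the values as TPM after removing transcripts of low abundance at a limit not given in the sources used here. Each library sums to 1e+06 TPM over 19875 gene names, so TPM keeps no read depth and precision was judged from the spread between libraries alone. Between 11292 (AsPC-1) and 14024 (H1048) genes reached 1 TPM.

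These values were put on the scale of log2(TPM + 1). A gene entered a fit if its mean there reached 1 TPM. Then limma 3.58.1 in R 4.3.3 (empirical Bayes with a trend, all libraries of a line and experiment in 1 fit) gave differences with standard errors and Benjamini-Hochberg adjusted p-values over all genes tested, with a threshold of 0.05. The fits were tested on simulated data. Differences between lines or experiments were tested as interaction terms. Because CB-6644 groups in AsPC-1 and T3M-4 had 1 DMSO library per vector, the 3 were taken as 1 group.

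Genes named with full values were the 3 largest falls and 3 largest rises among called genes without overlap in each comparison, and BRCA1, BRCA2, FANCD2, RAD51AP1, FANCC and RAD50 where called. Values of NBN, TIMELESS, TIPIN, FANCE, FANCF, RAD51D, FAN1, ATRIP, RMI1, EXO1, CLSPN, FANCL and FANCA, and of BRCA2 where it was not called, were also given outside that rule and chosen after their values were seen, as were the genes named for control levels and for differences between lines or experiments. The members and all lists were chosen with earlier results of these data known. Alternatives were a pseudocount of 0.1, no filter, median-of-ratios scaling, the replicate number as a block, each library left out in turn and the DMSO library of the same vector; tests between experiments, and a fit without the CFPAC-1 libraries labelled sgCDK1 and sgRpa3, were added after seeing the data. Replicate numbers paired samples only for sgRUVBL1 against sgRUVBL2 in BxPC-3 (correlations of 0.22 to 0.46 over 3 pairs). No 2 libraries were identical. Promoters came from RefSeq, GRCh38.p14.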

Additional observations from a re-analysis of the deposited data

Results flagged for a closer look

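Of 225 groups of 4 to 10 libraries tested for a library far from the others among the named genes, 11 were picked out, where chance alone gives about 1 in 20, or 11.2. RMI1 was at 27.7 TPM in T3M-4 experiment 2 sgRosa replicate 4 (others 29.5 to 29.6) and FANCD2 at 17.3 TPM in the same library (24.6 to 25.9). In BxPC-3 experiment 2, TIPIN was at 41.4 TPM in sgKLF5 replicate 1 (30.5 to 32.3), RMI2 at 17.5 TPM in sgRUVBL1 replicate 3 (20.3 to 20.7) and FANCL at 24.8 TPM in sgRosa replicate 3 (31.4 to 32.6). FANCE in T84 was at 12.3 TPM in CB-6644 replicate 2 (11.2 to 11.3) and at 19.3 TPM in DMSO replicate 2 (16.3 to 16.4). In A375, BRCA1 was at 45.2 TPM in CB-6644 replicate 2 (43.8 to 43.9) and at 33.3 TPM in DMSO replicate 4 (35.1 to 35.5), and FANCD2 at 29.3 TPM in CB-6644 replicate 3 (31.2 to 31.5). FANCC in RH30 was at 45.2 TPM in CB-6644 replicate 2 (48.3 to 48.8).

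Effects that differed between groups were counted by a test of the difference itself. Across 4 pancreatic lines they numbered 18 of the 38 genes for sgKLF5 (53.2% of all genes), 25 for sgRUVBL1 (71.6%) and 16 for sgRUVBL2 (54.3%). In these the share of the 38 genes was below that of all genes, so the counts are no result about these genes. For CB-6644 across T84, A375, H1048 and RH30 they numbered 36 (86.2%). Between AsPC-1 experiments 14 differed for sgRUVBL1 (23.8%). Between BxPC-3 experiments 8 differed for sgKLF5 (19.8%) and 6 for sgRpa3 (16.2%). In both the share of the 38 genes was close to that of all genes, so these counts are no result about these genes either.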

How the results depend on the processing

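Counts of called members stayed within 1.5 times the reported count in 267 of 318 recomputed knockout counts, 67 of 100 for CB-6644 in AsPC-1 and T3M-4, 48 of 48 in the other 4 lines and 83 of 89 between knockouts. Median-of-ratios scaling gave 19 called members for sgKLF5 in AsPC-1 experiment 1, 11 in experiment 3, 9 and 25 in T3M-4 experiments 1 and 2 and 3 in CFPAC-1. It gave 16 and 13 for sgRUVBL2 in AsPC-1 and BxPC-3, 10 for sgCDK1 and 15 for sgRpa3 in T3M-4 experiment 2. It gave 6 for RUVBL1_A62T in AsPC-1 and 8 for RUVBL2_dF109 against DMSO and 6 against Lv-Empty in T3M-4, and 25 for the difference of sgRUVBL2 between lines. Between experiments it gave 13 (BxPC-3 sgRpa3), 1 (AsPC-1 sgKLF5) and 6 (T3M-4 sgKLF5). Without a filter the count was 6 for sgKLF5 in AsPC-1 experiment 1 and 5 and 3 for sgKLF5 and sgRpa3 between BxPC-3 experiments. The DMSO library of the same vector alone gave 18, 0 and 15 in AsPC-1 (Lv-Empty, RUVBL1_A62T, RUVBL2_dF109) and 0 for RUVBL1_A62T in T3M-4. The fit without the CFPAC-1 libraries that went against their labels gave 2 for sgRUVBL2.

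With the replicate number as a block, which pairs samples in no comparison against a control, counts were 5 for sgKLF5 in AsPC-1 experiment 1, 9 for sgCDK1 in AsPC-1, 20 for sgKLF5 in T3M-4 experiment 1, 0 for sgKLF5 in BxPC-3 experiment 1, 14 for sgRUVBL2 in BxPC-3 and 4 for RUVBL2_dF109 against Lv-Empty in T3M-4. It changed no call between sgRUVBL1 and sgRUVBL2 in BxPC-3. No paired analysis was possible for CB-6644 against DMSO in AsPC-1 and T3M-4 because the arms share fewer than 2 numbers.

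Leaving out 1 library at a time gave, against sgRosa, 1 to 13 for sgKLF5 (1 and 2 without a sgRosa library) and 5 to 16 for sgCDK1 in AsPC-1, 5 to 12 for sgCHD4 (5 without sgRosa replicate 1). It gave 0 to 18, 11 to 22, 0 to 5 and 1 to 5 in T3M-4 (sgKLF5 in experiments 1 and 2, sgCDK1, sgRpa3; 22 without sgRosa replicate 4). It gave 0 to 1, 1 to 2, 3 to 11, 3 to 13 and 7 to 23 in BxPC-3 (sgKLF5 in experiment 1, sgCDK1, sgRUVBL1, sgRUVBL2, sgRpa3). It gave 0 to 2, 0 to 6 and 0 to 5 in CFPAC-1 (sgKLF5, sgRUVBL2, labelled sgRpa3; 0 without sgRUVBL2 replicate 1). In CB-6644 it gave 0 to 4 and 3 to 17 in AsPC-1 (RUVBL1_A62T, RUVBL2_dF109; 17 without the Lv-Empty DMSO library). It gave 12 to 24 and 5 to 18 in T3M-4 (Lv-Empty, 12 without its CB-6644 replicate 2; RUVBL1_A62T, 5 without the RUVBL2_dF109 DMSO library), and 7 to 14 and 3 to 13 for the variants against Lv-Empty there. Between knockouts it gave 1 to 2 and 0 to 2 (sgRUVBL1 against sgRUVBL2 in AsPC-1 and T3M-4), and 11 to 24 and 12 to 22 (sgRUVBL1 and sgRUVBL2 against sgCDK1 in AsPC-1). Of the single-gene values, 2795 kept their direction and side of the threshold, 336 lost the call, 24 gained it and 6 turned. With scaling these were RAD50, AsPC-1 Lv-Empty CB6644 vs DMSO (-0.054), FANCC and RAD50, T3M-4 RUVBL1_A62T CB6644 vs DMSO (-0.043 and -0.017), RAD51AP1, T84 CB6644 vs DMSO (-0.041) and FANCL, A375 CB6644 vs DMSO (-0.071). TIPIN, AsPC-1 Lv-Empty CB6644 vs DMSO, ran from -0.13 to 0.034 with 1 library left out, and was above 0 without the Lv-Empty DMSO library. The cause was not tested. Where an arm was left with 1 library, that library was assumed to vary like the other groups. Read depth is unknown, and groups of 2 to 4 libraries limit what can be called.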

Other observations

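Genes of end joining, the pathway that seals breaks without a template, were called in both directions with CB-6644: of 13 listed, 2 rose and 4 fell in AsPC-1, 3 and 3 in T3M-4, 3 and 5 in T84, 5 and 6 in A375, 6 and 5 in H1048 and 6 and 5 in RH30. With sgRUVBL1, 3 rose and 4 fell in AsPC-1 experiment 2, 5 and 1 in AsPC-1 experiment 3, 4 and 4 in T3M-4, 1 and 1 in BxPC-3 and 1 and 3 in CFPAC-1. Of 18 p53 target genes, 8 rose and 4 fell with sgRUVBL1 in AsPC-1 experiment 2, 9 and 3 in T3M-4, 3 and 0 in BxPC-3 and 0 and 4 in CFPAC-1. The p53 counts for AsPC-1 experiment 3 are not given. With sgRpa3 in BxPC-3 experiment 2, 23 of 24 replication genes fell (median -0.75) and 15 of 22 mitosis genes fell (20.8% of all genes were called). The shares of all genes called with CB-6644 and sgRUVBL1 were 34.3% to 81.1% and 16% to 60.5%, as given by line in the results.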
